A study of Mus musculus with 18 samples.

Results

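Gsn, Anln and Septin4 are 3 genes of the cytoskeleton that oligodendrocytes use. They were chosen by their KO minus WT differences, seen earlier in these data, and are followed here in the brain of Aldh5a1-/- mice (KO) set against wild-type mice (WT). Aldh5a1 encodes the mitochondrial enzyme that completes GABA breakdown. Hippocampus, cerebellum and cortex of 3 KO mice (numbered 3363, 3389 and 3403) and of 3 WT mice (3405, 3406 and 3396) were each hybridised to 1 Affymetrix mouse expression array, 18 arrays in all. The 6 groups of 3 were KO and WT hippocampus, KO and WT cerebellum, and KO and WT cortex, and no group had a further allele or agent in the labels. Age, sex and strain are not given in the sources used here. The members were all probe sets whose only annotated gene symbol is one of the 3 names, which gave 4 of the 12488 probe sets on the array, for 3 of the 8252 genes named by a single-symbol probe set: 93750_at for Gsn, 96784_at for Anln, and 94079_at and 161234_f_at for Septin4. The genes lie at chr2:35256359-35307902 (Gsn), chr9:22331214-22389211 (Anln) and chr11:87566689-87590543 (Septin4) in GRCm38.p6, per the reference gene table. Where in its transcript each probe set sits was not analysed here.

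Oligodendrocytes are the glial cells that wrap axons in myelin. Their processes first advance on a growing actin network, and the sheath then spreads and wraps as actin filaments are taken apart. Gsn (gelsolin) severs and caps actin filaments, and is abundant in oligodendrocytes among several other cell types. Septins are filament-forming GTPases, and anillin, the product of Anln, is an actin- and septin-binding scaffold best known from the contractile ring of dividing cells. In mature mouse myelin, anillin and a few septins, Septin4 among them, form filaments on the inner side of the sheath. Septin4 is also made by other glia, including the Bergmann glia of the cerebellum.

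The reference table of promoters held 8 windows of 300 bases for the members, 250 before and 50 after an annotated start: 3 for Gsn, 1 for Anln and 4 for Septin4, 2 of which overlap. Each was searched on both strands for ACAAAG and ACAATG (SOX family factors, to which the oligodendrocyte regulator SOX10 belongs), CCAAT (NF-Y), TTTGAA (the cell cycle homology region of genes active in mitosis) and GGGCGG (the GC box). The GC box letters were in 7 of the 8 windows, CCAAT in 3, TTTGAA in 1 (that of Anln), ACAAAG in 1 (of Septin4) and ACAATG in 0. Of all 32851 promoter windows in the table, 35.7% hold the GC box letters, 37.4% CCAAT, 17.9% TTTGAA, 18.7% ACAAAG and 12.6% ACAATG. None of the 5 sets of letters was therefore shared by all 3 genes except the GC box. One window per gene is printed from RefSeq, 5′ to 3′ on the strand of the gene, with all matches to the 5 motifs in capitals. They are the window at the annotated start of Gsn, the single Anln window with TTTGAA at bases 272 (as its reverse complement) and 279, and the Septin4 window that holds ACAAAG at bases 16 (as its reverse complement) and 204, which was chosen for that match.
Gsn, chr2:35256109-35256408, plus strand: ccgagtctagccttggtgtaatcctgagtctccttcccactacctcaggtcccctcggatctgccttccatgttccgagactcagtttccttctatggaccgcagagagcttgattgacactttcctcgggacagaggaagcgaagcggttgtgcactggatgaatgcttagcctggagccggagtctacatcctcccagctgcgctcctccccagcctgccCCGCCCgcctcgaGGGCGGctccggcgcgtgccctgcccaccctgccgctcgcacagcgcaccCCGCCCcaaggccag
Anln, chr9:22389157-22389456, minus strand: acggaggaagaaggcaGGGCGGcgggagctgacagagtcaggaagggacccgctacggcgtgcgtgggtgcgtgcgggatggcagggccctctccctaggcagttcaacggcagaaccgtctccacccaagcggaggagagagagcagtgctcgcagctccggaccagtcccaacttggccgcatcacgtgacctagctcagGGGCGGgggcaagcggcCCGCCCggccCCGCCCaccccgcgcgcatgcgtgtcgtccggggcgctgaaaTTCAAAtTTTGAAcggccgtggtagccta
Septin4, chr11:87580811-87581110, plus strand: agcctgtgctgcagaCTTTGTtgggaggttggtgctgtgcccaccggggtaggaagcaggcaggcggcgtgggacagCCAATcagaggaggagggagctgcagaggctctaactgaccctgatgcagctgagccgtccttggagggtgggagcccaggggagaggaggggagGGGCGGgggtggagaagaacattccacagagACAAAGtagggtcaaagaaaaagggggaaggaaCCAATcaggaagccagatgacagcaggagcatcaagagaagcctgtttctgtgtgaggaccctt

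Signal here means the probe set intensity as deposited, scaled to a common trimmed mean on every array. Levels of different probe sets cannot be set against each other as amounts of RNA, so the level of each is compared with itself across arrays. Bright and dim refer to signal alone. The marker sums below add the signals of several probe sets, and each sum is likewise compared only with itself across arrays. Differences are given on the log2 scale as KO minus WT, with the standard error (SE) of a limma fit to all 18 arrays, after values under a floor of 9.46 were raised to it. Median signal per array ranged from 53.6 to 65.0. By array profile, 18 of 18 grouped with the region in their titles, although the source label calls every sample hippocampus. No depth can be given for arrays, and the number of animals limits the precision.

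The KO minus WT differences of the 3 genes were known when they were chosen, so these values are a description and carry no test. In the fit across 8382 probe sets, those of the members that were past an adjusted p of 0.05 were Gsn in hippocampus and cortex, Septin4 161234_f_at in hippocampus and Anln in cortex, all lower in KO. That is 2 of the 4 in hippocampus and 2 in cortex, where 0.0835% and 0.227% of all probe sets passed in that direction, and 0 in cerebellum, where 0.0358% passed lower and 0% higher. Members passing as higher in KO numbered 0 in hippocampus and 0 in cortex (0.0358% and 0.0597% of all). By whether the arrays of the groups overlapped, KO lay wholly below WT for 3 of the 4 in hippocampus, 1 in cerebellum and 2 in cortex, against 6.94%, 7.8% and 7.18% of all probe sets. KO lay wholly above WT for 1 of the 4 in cerebellum, against 7.53% of all, and for 0 in hippocampus and cortex, against 10.4% and 7.05%. These shares are given beside the counts, and nothing is read from them, since the same differences chose the genes.

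Gsn was lower in KO in all 3 regions, by the most in cortex and hippocampus. In hippocampus its signal was 162, 161 and 218 in KO and 743, 726 and 456 in WT. In cortex it was 213, 130 and 87.1 in KO and 555, 545 and 406 in WT. In cerebellum it was 554, 518 and 657 in KO and 781, 965 and 845 in WT. Every KO array was below every WT array in each of the 3 regions, but the gap was far narrower in cerebellum. The group means were 181 ± 32.9 in KO and 642 ± 161 in WT hippocampus (SD, n = 3), a log2 difference of -1.81 ± 0.25 (SE), or 3.51-fold lower. They were 143 ± 63.8 in KO and 502 ± 83.4 in WT cortex, a difference of -1.89 ± 0.25, or 3.71-fold lower. Cerebellum gave 577 ± 72.1 in KO and 864 ± 93.3 in WT, a difference of -0.58 ± 0.25, or 1.499-fold lower. In tissue pieces like these, fewer cells of a type and less RNA per cell cannot be told apart. Among all 8382 probe sets its difference ranked 5 from the lowest in hippocampus and in cortex, and 180 in cerebellum. The WT mouse 3396 had the lowest Gsn of the WT mice in both hippocampus and cortex, and it is also the WT mouse with the lowest summed oligodendrocyte marker signal in those regions. In cerebellum, however, mouse 3396 had the highest marker sum of the WT mice (11055, against 9723 and 9992), and its Gsn of 845 was the middle value.

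**Figure D1:**
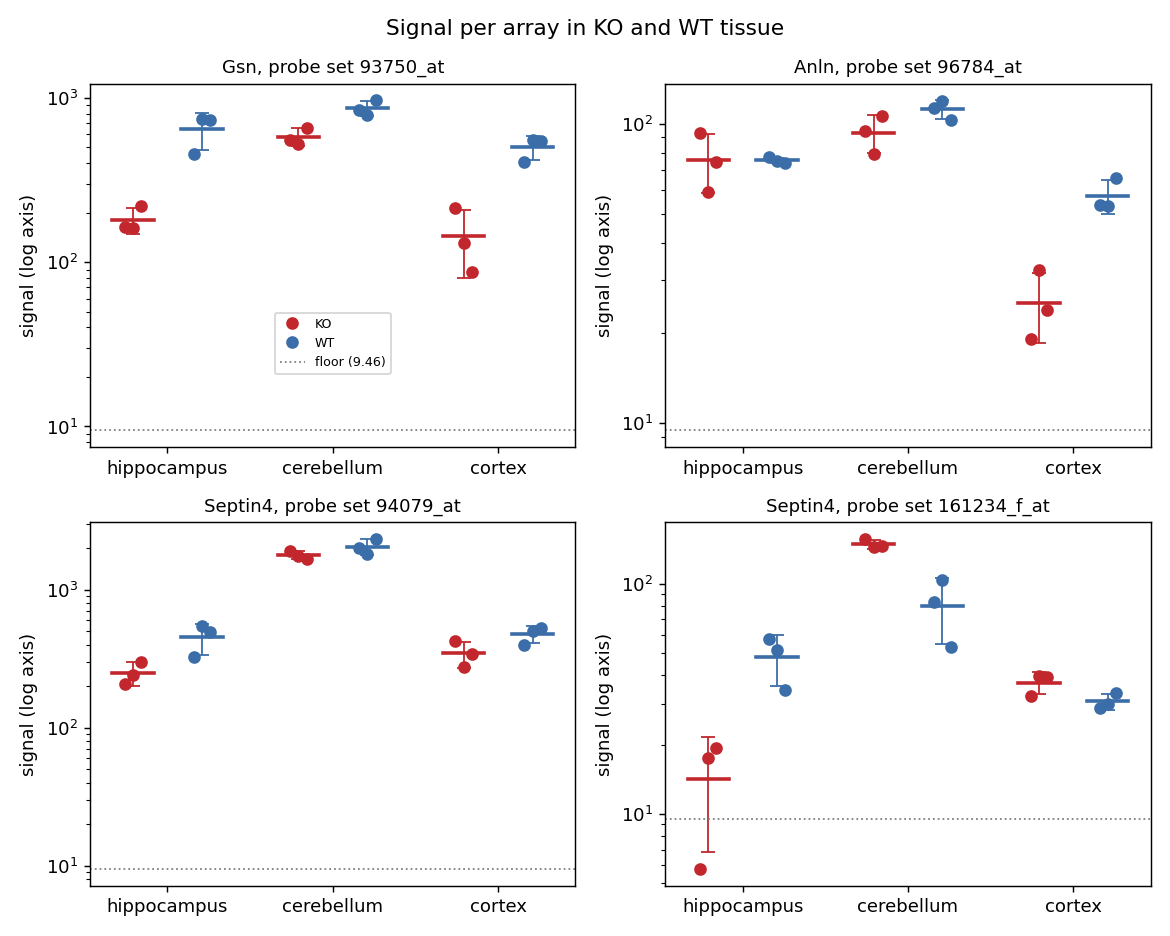
Signal of each array (points, log axis) for the 4 probe sets in 3 regions, KO left and WT right; bars are group means with SD of 3 arrays, and the dotted line is the floor of 9.46. Gsn is lower in KO in all 3 regions, Anln is apart only in cortex, and the Septin4 probe set 161234_f_at is lower in KO hippocampus but higher in KO cerebellum, where its KO arrays read 144 to 156.

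Anln differed between the genotypes in cortex and little elsewhere. Its cortical signal was 19.1, 32.4 and 24.0 in KO and 53.1, 66.0 and 53.4 in WT. These groups did not overlap, and their means of 25.2 ± 6.69 in KO and 57.5 ± 7.36 in WT differed by -1.22 ± 0.20 on the log2 scale, or 2.33-fold. In hippocampus it read 93.1, 59.3 and 74.2 in KO and 75.0, 74.0 and 77.2 in WT. There the KO arrays lay on both sides of a very tight WT group, and the difference was -0.02 ± 0.20, with a positive sign only without KO mouse 3389 (0.14). In cerebellum it read 94.2, 79.1 and 106 in KO and 119, 103 and 113 in WT, with overlap between the groups, and the difference was -0.27 ± 0.20, which was -0.16 without KO mouse 3389. The cortical signal in KO is also the dimmest of any Anln group, so the size of the cortical difference leans on how dim values are treated: with 16 added to each signal in place of the floor it was -0.84. On the cortex arrays the Gapdh control probes at the 3' end over those at the 5' end, which tell of RNA integrity, gave 0.804 ± 0.00773 in KO and 0.903 ± 0.0202 in WT (SD, n = 3). The actin control probes gave 1.77 ± 0.124 in KO and 1.77 ± 0.140 in WT cortex, and the part of RNA integrity in the cortical differences was not tested.

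The Septin4 probe sets gave different pictures. The brighter one, 94079_at, read 208, 240 and 301 in KO hippocampus and 544, 490 and 325 in WT hippocampus. KO lay wholly below WT there, although the highest KO array and the lowest WT array, that of 3396, were close, and the difference was -0.84 ± 0.19, or 1.79-fold. In cortex it read 424, 274 and 340 in KO and 505, 528 and 399 in WT, which overlap, with a difference of -0.48 ± 0.19. In cerebellum it read 1903, 1767 and 1663 in KO and 1815, 2331 and 2012 in WT, with a difference of -0.20 ± 0.19, which was -0.11 without WT mouse 3406. So 94079_at was lower on average in KO in every region, most in hippocampus, and it is not one of the probe sets that passed.

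The dimmer Septin4 probe set, 161234_f_at, read 5.76, 17.4 and 19.3 in KO hippocampus and 51.6, 34.6 and 57.7 in WT hippocampus. The array of KO mouse 3363 was under the floor, and on floored values the difference was -1.67 ± 0.28. With such dim KO values the size depends on the floor: it was -1.10 with 16 added in its place and -1.91 with no floor. In cerebellum it read 156, 144 and 145 in KO and 104, 53.2 and 83.5 in WT, so KO lay wholly above WT, by 0.94 ± 0.28. In cortex it read 32.6, 39.6 and 39.4 in KO and 29.9, 33.6 and 28.9 in WT, with overlap and a difference of 0.27 ± 0.28. Its direction in cerebellum and cortex is thus opposite to that of 94079_at. In Affymetrix naming the ending _f_at marks a probe set whose probes can match a family of similar sequences, so its assignment to Septin4 alone is uncertain. On the KO cerebellum arrays all 4 kept choroid plexus markers also lay above WT on average, with a median log2 difference of 1.74, and 0 passed by limma (3 had an unadjusted p under 0.05). Their summed signal, with that of 1 dim marker, was 2265 to 2995 in KO and 1114 to 3233 in WT cerebellum, and their part in the 161234_f_at difference was not tested.

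**Figure D2:**
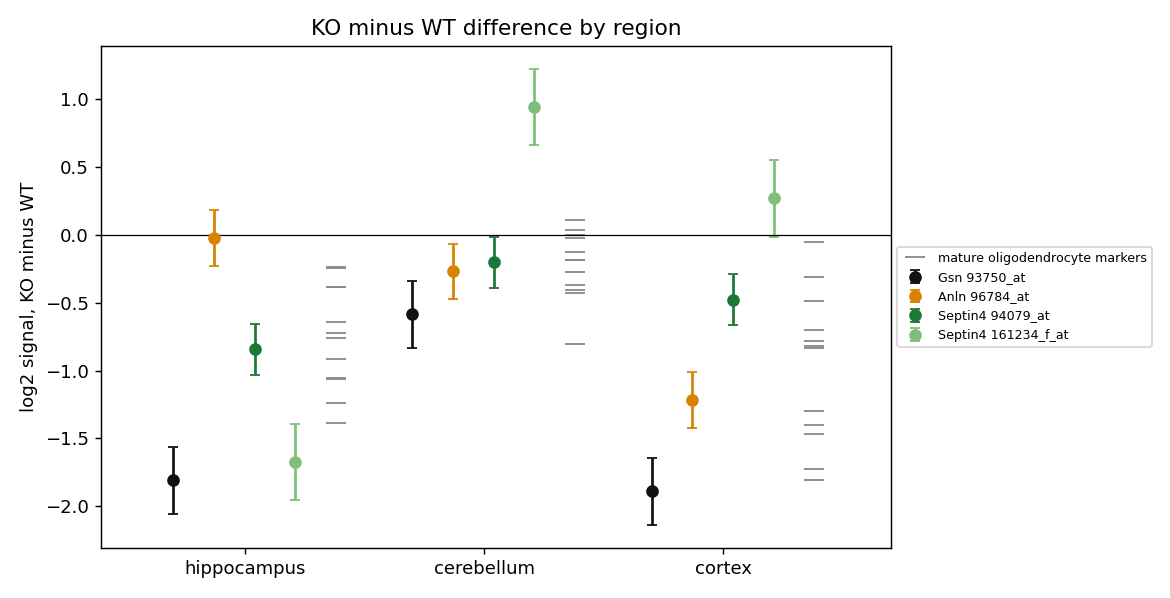
Log2 KO minus WT difference of each probe set by region (points, with the limma SE as bars) beside those of 12 mature oligodendrocyte markers (grey dashes). Gsn lies below all 12 markers in hippocampus and cortex, Anln lies above all 12 in hippocampus, and Septin4 161234_f_at runs from -1.67 in hippocampus to 0.94 in cerebellum. The members were chosen with these differences known, so their place among the markers is a description.

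Differences between regions of WT tissue did not enter the choice of the genes and were tested with limma, although the same WT arrays serve in the KO minus WT values. All 4 probe sets differed between the WT regions by the moderated F test, as did 44% of all probe sets. For Gsn (adjusted p = 0.0407) this call was lost under 7 of 15 alternatives, with adjusted p up to 0.175, and for Anln and Septin4 161234_f_at it was lost without WT mouse 3405 (0.0645 and 0.0709). Each was brightest in cerebellum. The cerebellum was higher than cortex for 4 of 4 (17.8% of all probe sets passed in that direction, and lower for 0, against 23%), higher than hippocampus for 2 of 4 (13.9%, and lower for 0, against 15.2%), and hippocampus and cortex differed for 0 of 4 (6.35% of all were higher in hippocampus and 6.18% lower), with a lowest adjusted p of 0.172.

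Septin4 had the steepest regional pattern. On 94079_at, WT cerebellum read 2053 ± 260 and WT hippocampus 453 ± 114 (SD, n = 3), a 4.61-fold difference (log2 2.21 ± 0.19, adjusted p = 3.65e-08 by limma). WT cerebellum was also 4.31-fold above WT cortex, at 478 ± 68.6 (adjusted p = 6.16e-08), and both held in 3 of 3 mice and under all 15 alternatives. Hippocampus and cortex lay within their spread of each other (log2 -0.10 ± 0.19, adjusted p = 0.786). The dimmer 161234_f_at gave the same order at the top, with 80.1 ± 25.5 in WT cerebellum, 48.0 ± 11.98 in hippocampus and 30.8 ± 2.52 in cortex. Its cerebellum was 2.51-fold above cortex (adjusted p = 0.00112), and above hippocampus by 1.65-fold without passing (adjusted p = 0.0627), though this passed with the mouse as a block (0.0493) and under 4 other alternatives.

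The WT signal of Anln averaged 112 ± 8.10 (cerebellum), 75.4 ± 1.67 (hippocampus) and 57.5 ± 7.36 (cortex; SD, n = 3). Cerebellum was 1.95-fold above cortex (adjusted p = 0.00116 by limma, higher in 3 of 3 mice) and 1.48-fold above hippocampus (adjusted p = 0.0457). The call against hippocampus was lost with the mouse as a block (adjusted p = 0.0722), with no filter (0.0620), and without KO mouse 3403 (0.0664) or WT mouse 3396 (0.138), 3405 (0.220) or 3406 (0.132). The WT signal of Gsn averaged 864 ± 93.3 (cerebellum), 642 ± 161 (hippocampus) and 502 ± 83.4 (cortex). Only its cerebellum and cortex differed, by 1.73-fold (log2 0.79 ± 0.25, adjusted p = 0.0164, higher in 3 of 3 mice), and not with no filter (adjusted p = 0.0511) or without WT mouse 3396 (0.0857) or 3406 (0.0813). Its hippocampal level lay between, and neither step passed (adjusted p = 0.181 from cerebellum and 0.419 from cortex).

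The same regional steps in KO tissue are given without a test, since they contain the differences that chose the genes. KO cerebellum over KO cortex was 4.28-fold for Gsn, 3.77-fold for Anln and 5.21-fold for Septin4 94079_at, where WT gave 1.73-fold, 1.95-fold and 4.31-fold. KO hippocampus and KO cortex were 1.33-fold apart for Gsn, as WT were at 1.26-fold, but 3.02-fold apart for Anln, at 75.5 against 25.2, where WT gave 1.32-fold. For Anln, KO cerebellum over KO hippocampus was 1.25-fold, less than the 1.48-fold of WT. For Septin4 161234_f_at, hippocampus was 2.52-fold below cortex in KO on floored values but 1.53-fold above it in WT. The KO minus WT difference of Anln was 1.20 log2 units higher in hippocampus than in cortex, while that of Gsn differed by 0.08 between them.

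The label of oligodendrocyte genes was set against markers of mature oligodendrocytes. Of 25 such markers 14 were on the array, and their defining members were bright: the myelin protein gene Mbp averaged 1893 in KO and 3359 in WT cortex and Mobp 674 in KO and 1752 in WT cortex. Cnp had a mean under the floor in 4 of the 6 groups and Gpr37 in 3. The summed marker signal was 5226 to 6582 in KO and 7335 to 10802 in WT hippocampus, 4384 to 5260 in KO and 7696 to 9643 in WT cortex, and 8874 to 9571 in KO and 9723 to 11055 in WT cerebellum. These sums did not overlap between KO and WT in any region, but this was not particular to them. In cerebellum the sums of neuron and ependymal markers (lower in KO) and of precursor markers (higher in KO) did not overlap either. Nor did those of microglia markers in hippocampus (higher in KO) and of astrocyte markers in cortex (lower in KO). The mature oligodendrocyte sum rests most on its brightest markers. Of the 12 kept markers, 2 fell in KO hippocampus (Mobp and Mag) and 6 in KO cortex (Mobp, Mal, Mog and Nkx6-2 with the lowest p) by limma, and 0 rose, with medians of -0.74 and -0.83. In cerebellum 0 passed (2 had an unadjusted p under 0.05), with a median of -0.18. Over all kept probe sets the medians were 0.02 in hippocampus, 0.03 in cerebellum and 0.00 in cortex. The members and the lists were chosen with earlier results of these data known. The marker calls above and the ranks below are therefore a description. Gsn was below all 12 markers in hippocampus and cortex and below 11 of 12 in cerebellum. Septin4 94079_at lay among them in hippocampus (5 lower and 7 higher) and above 10 of 12 in cortex, and Anln lay above all 12 in hippocampus and had 5 lower and 7 higher in cortex. The part of these markers in the differences of the 3 genes was not tested.

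Deviations of single arrays from their group means, which no KO minus WT difference enters, showed which members varied with the markers from array to array. They need not follow the mouse: the marker deviation of WT mouse 3396 was -0.40 in hippocampus, 0.17 in cerebellum and -0.23 in cortex. Over the 18 arrays the deviations of Gsn and of the mean of the 12 markers had a Pearson r of 0.83, and those of Septin4 94079_at an r of 0.73. Gsn and Septin4 94079_at deviated together at r = 0.71. Anln did not follow the markers (r = 0.04), nor did 161234_f_at (r = -0.27), and the Septin4 probe sets were unrelated to each other in this measure (r = -0.10). Signals ran from 19.1 to 119 for Anln and from 5.76 to 156 for 161234_f_at, beside array medians of 53.6 to 65.0. The part of dim signal in their low r was not tested. Arrays of 1 mouse share that mouse, and probe sets of 1 array share its RNA and scaling, so these values describe the 18 arrays.

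**Figure D3:**
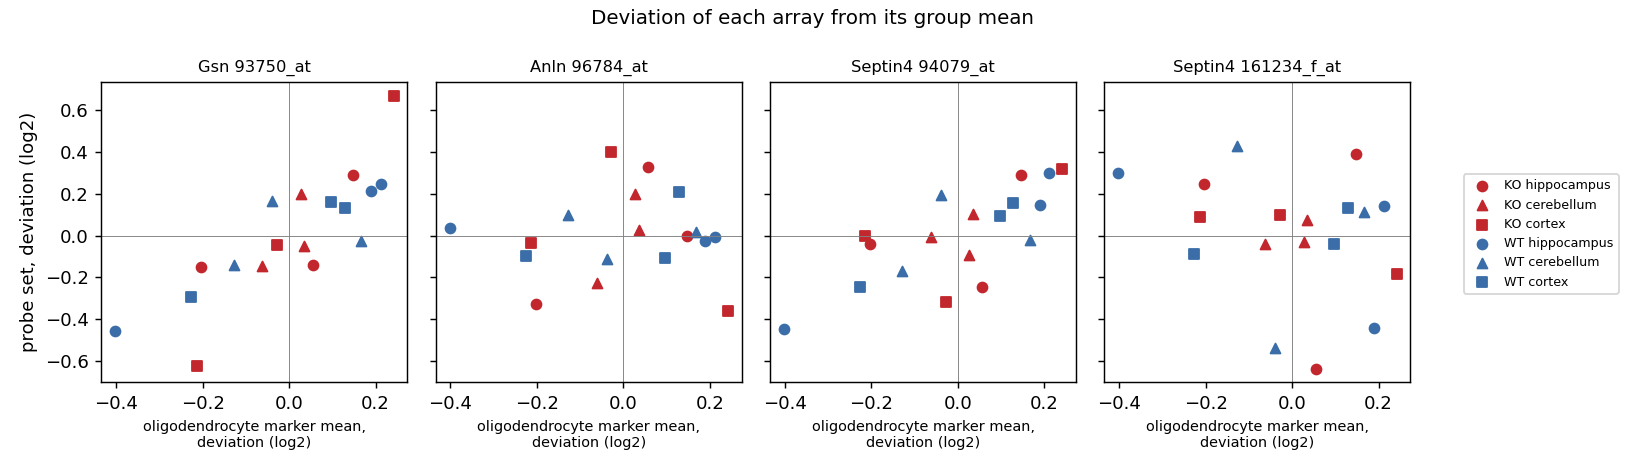
Deviation of each of the 18 arrays from its group mean (log2), for each probe set (vertical axis) against the mean of 12 mature oligodendrocyte markers (horizontal axis); colour gives the genotype and the symbol the region. Points of Gsn and Septin4 94079_at slope upward with the markers (r = 0.83 and 0.73), while Anln and Septin4 161234_f_at scatter around 0 (r = 0.04 and -0.27).

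The genes whose log2 signal was most like that of each member over the 18 arrays differed between the members. For Gsn the 5 closest were all mature oligodendrocyte markers: Mobp (Pearson r = 0.95, Spearman rho = 0.78), Mog (0.94, rho = 0.86), Cldn11 (0.93, rho = 0.92), Mag (0.93, rho = 0.90) and Mal (0.92, rho = 0.85). These encode proteins of the myelin sheath. For Septin4 94079_at they were Zfand6 (r = 0.98, rho = 0.94), Dennd5a (0.98, rho = 0.91), Cited2 (0.96, rho = 0.86), Zfp598 (0.96, rho = 0.87) and Cox6b2 (0.96, rho = 0.78). For Anln they were Hdc, the enzyme that makes histamine (r = 0.91, rho = 0.89), Adi1 of methionine salvage (0.91, rho = 0.89), the G protein subunit gene Gng11 (0.88, rho = 0.85), Nde1, a centrosomal protein (0.88, rho = 0.76), and Tmem123 (0.88, rho = 0.88). None of these 10 was on the marker list. The likeness was taken for Septin4 on 94079_at alone. The points share mice, arrays, the contrast between cerebellum and the other regions, and the KO minus WT differences that chose the genes, so the likeness supports nothing about the label and no p is attached.

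Relatives and partners of the 3 genes did not pass in any region. Of 12 other septins 7 were on the array and 6 were kept, and 0 passed in hippocampus, cerebellum or cortex by limma, with 2, 1 and 1 at an unadjusted p under 0.05. Their median differences were 0.05, -0.01 and -0.04. Septin7, the obligatory core subunit of septin filaments, read 1559 ± 9.39 in KO and 1759 ± 82.5 in WT hippocampus (log2 -0.17 ± 0.08, adjusted p = 0.574), with -0.12 ± 0.08 in cerebellum and -0.06 ± 0.08 in cortex. Septin2, which joins Septin4 and anillin in mouse myelin, read 357 ± 47.7 in KO and 217 ± 37.6 in WT cerebellum (0.72 ± 0.17, adjusted p = 0.115), 0.04 ± 0.17 in hippocampus and 0.37 ± 0.17 in cortex. Septin9 had 0.34 ± 0.15 in hippocampus (628 ± 95.7 in KO and 492 ± 16.4 in WT, adjusted p = 0.571), and Septin6, Septin10 and Septin11 lay between -0.32 and 0.12 in all 3 regions. None of the 6 had a difference near the -0.84 or -1.67 of the Septin4 probe sets in hippocampus. Septin4 was chosen with those values known, so nothing is read from that contrast. In cerebellum and cortex Septin2 (0.72 and 0.37) ran in the direction of Septin4 161234_f_at (0.94 and 0.27). Whether that probe set also reads other septins was not tested.

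Of 7 other genes of the gelsolin family 6 were on the array and 4 were kept, the actin-capping gene Capg, the severing gene Scin (adseverin), Flii and Svil (supervillin), which tethers actin to membranes. In limma 0 passed in any region, with 0, 0 and 1 at an unadjusted p under 0.05 in hippocampus, cerebellum and cortex, and medians of 0.19, 0.13 and 0.24. Scin, at 20.3 ± 9.77 in KO and 31.5 ± 9.63 in WT hippocampus, had the lowest value there (-0.71 ± 0.43, adjusted p = 0.694). Capg on its brightest probe set had 0.20 ± 0.31 in hippocampus, but 0.86 ± 0.35 on another. Flii had 0.32 ± 0.10 in cortex (adjusted p = 0.255) on its brightest probe set and -0.06 and -0.10 on the others.

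No gene of the wider actin and division lists passed. Of 37 genes of actin turnover 27 were kept and 0 passed in any region, with 0, 7 and 4 at an unadjusted p under 0.05 in hippocampus, cerebellum and cortex. Their medians were -0.10, -0.03 and -0.03, where all kept probe sets had 0.02, 0.03 and 0.00. Of the 27, 21 lay below 0 in hippocampus, 17 in cerebellum and 16 in cortex, where 45.4%, 44.3% and 49.4% of all kept probe sets did. The lowest p were those of Twf2, an actin monomer-binding protein, and Cfl1 (cofilin, which severs actin filaments as gelsolin does) in cerebellum. Twf2 read 114 ± 19.8 in KO and 185 ± 15.0 in WT (-0.72 ± 0.15, adjusted p = 0.0720). Cfl1 read 2010 ± 81.9 in KO and 2617 ± 299 in WT (-0.37 ± 0.10, adjusted p = 0.156). In hippocampus Pfn2 (profilin) had -0.17 ± 0.08 (adjusted p = 0.610) and the formin gene Diaph1 0.25 ± 0.14 (0.655). In cortex Enah, an actin elongation factor, had 0.45 ± 0.15 (0.269) and the thymosin gene Tmsb4x -0.28 ± 0.12 (0.423).

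Anillin's partners in cell division were mostly dim, as 10 of 21 cytokinesis and division genes on the array were kept. By limma 0 passed, with 1, 1 and 0 at an unadjusted p under 0.05 in hippocampus, cerebellum and cortex, and medians of 0.05, 0.02 and -0.04. In cortex, where Anln was lower, Racgap1, a regulator of the contractile ring, had -0.47 ± 0.25 (adjusted p = 0.541) and the midzone gene Prc1 0.93 ± 0.49 (0.540). In hippocampus the cyclin gene Ccna2 had -0.72 ± 0.32 (adjusted p = 0.574) and the mitotic kinase gene Plk1 0.45 ± 0.24 (0.652). In cerebellum the myosin gene Myh9 had -0.44 ± 0.20 (adjusted p = 0.370) and Plk1 0.44 ± 0.24 (0.486). Of 16 other genes of the oligodendrocyte cytoskeleton 11 were kept and 0 passed, with 1, 4 and 4 at an unadjusted p under 0.05 and medians of -0.01, 0.09 and 0.01. Tubb4a, a beta tubulin abundant in oligodendrocytes, read 2261 ± 334 in KO and 2826 ± 279 in WT hippocampus (-0.33 ± 0.14, adjusted p = 0.565), and 2238 ± 297 in KO and 3038 ± 422 in WT cerebellum (-0.44 ± 0.14, adjusted p = 0.220). The tubulin-binding gene Tppp3 had 0.61 ± 0.35 in hippocampus (0.675) and -0.997 ± 0.35 in cortex (0.297). The membrane linkers Ezr (ezrin) and Rdx (radixin) had 0.50 ± 0.13 in cerebellum (0.141) and -0.30 ± 0.12 in cortex (0.387).

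**Figure D4:**
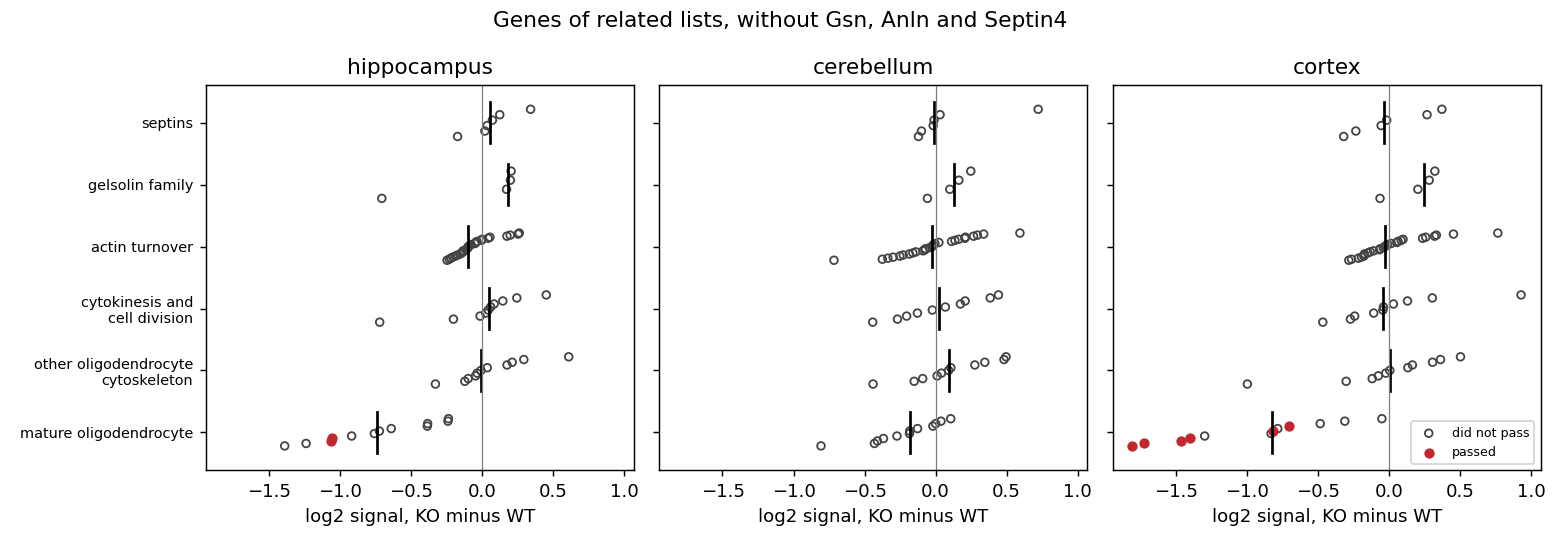
Log2 KO minus WT difference of each kept gene of 6 lists in each region, without Gsn, Anln and Septin4; filled points passed an adjusted p of 0.05 and vertical bars are list medians. The only filled points are mature oligodendrocyte markers, 2 in hippocampus and 6 in cortex.

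No marker of another cell type passed in any region. Of 4 kept markers of oligodendrocyte precursors 0 passed in any region by limma, with 0, 1 and 0 at an unadjusted p under 0.05 in hippocampus, cerebellum and cortex, and medians of 0.02, 0.23 and -0.04. Pdgfra, the receptor that defines these cells, averaged 498 in KO and 555 in WT hippocampus, and 535 in KO and 535 in WT cortex. Gsn is also made by fibroblasts. Of the 8 markers of meninges and fibroblasts 0 passed (1, 0 and 0 at an unadjusted p under 0.05), with medians of -0.07, -0.06 and 0.02. Their summed signal was 2267 to 4129 in KO and 3423 to 4367 in WT hippocampus, and 3793 to 4964 in KO and 3335 to 3866 in WT cortex. The 4 kept choroid plexus markers all lay below 0 in hippocampus (median -0.41, with 0 at an unadjusted p under 0.05). Their sum was 1059 to 4007 in KO and 3059 to 3709 in WT hippocampus, and 945 to 1973 in KO and 1076 to 1916 in WT cortex, so both sums overlapped between the genotypes in hippocampus. Astrocyte, microglia, vascular, ependymal and neuronal markers had 0 that passed in any region. Between 0 and 4 per list and region had an unadjusted p under 0.05 by limma. The 4 were neuron markers in cerebellum, where all 8 kept neuron markers lay below 0 (median -0.26). The mature oligodendrocyte markers had a median of -0.18 there, and 44.3% of all kept probe sets lay below 0. The 9 kept microglia markers lay above 0 in hippocampus and in cortex (medians 0.20 and 0.26), where 45.4% and 49.4% of all kept probe sets lay below 0. The astrocyte marker Gfap, an intermediate filament gene, was named after its values were seen. It read 612 ± 198 in KO and 306 ± 92.8 in WT hippocampus (0.99 ± 0.29, adjusted p = 0.293 by limma). In cortex it read 292 ± 62.1 in KO and 181 ± 37.3 in WT (0.68 ± 0.29, adjusted p = 0.411). The other astrocyte markers did not share this direction as a set. Of the 8 kept, 3 lay below 0 in hippocampus and 5 in cortex, with medians of 0.04 and -0.08. Aldoc (-0.44 ± 0.09, adjusted p = 0.0578 by limma) and S100b (-0.54 ± 0.18, 0.280) were lower in KO cortex, without passing. The part of these markers in the differences of the 3 genes was not tested.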

How the data were processed

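The deposited table holds probe set intensity on a linear scale, already scaled by the authors to a common 2% trimmed mean (150.07 to 150.08 on the 18 arrays, as seen in the values). The authors' software was not given in the sources used here. A floor at the 20th percentile of the whole table (9.46) was set before log2, and 66 control probe sets of the 12488 entered no fit. The 8382 probe sets above their array's 40th percentile on at least 3 arrays were kept, the 4 members among them. Symbols came from the platform annotation (1 symbol for 10855 probe sets, several for 396, none for 1237), and 10839 were matched to the reference table.

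Fits used limma 3.58.1 in R 4.3.3, with 6 group means on 18 arrays, an intensity trend, two-sided tests and Benjamini-Hochberg adjustment over all kept probe sets, and were checked on simulated data. With 3 mice against 3, an exact permutation test cannot give a p under 0.1, so none was used. The mouse pairs the regions, since same-numbered arrays come from the same animal (median residual correlation 0.135 within mice and -0.0159 between mice); fits with the mouse as a block were alternatives. List genes were read on their brightest probe set. The probe sets read for Plk1, Diaph1 and Cox6b2, and another of Flii, also end in _f_at, so their assignment to a single gene is uncertain too. All probe sets of the members are named; of each list up to 4 genes that passed, or otherwise the 2 of lowest p in a region, with every kept septin and gelsolin family gene; and the 5 genes most like each member. The members and lists were chosen with earlier results of these data known. Other alternatives were another normalization, floor, filter or trend, each mouse left out, and fewer arrays in the fit.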

Additional observations from a re-analysis of the deposited data

Results flagged for a closer look

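The Septin4 probe set 161234_f_at ran in opposite directions in 2 regions. In hippocampus each KO array lay below each WT array, with a log2 difference of -1.67, and in cerebellum each KO array lay above each WT array, with a log2 difference of 0.94. Of all probe sets, 6.94% lay wholly lower in KO hippocampus and 7.53% wholly higher in KO cerebellum. The difference between these regions was not tested, because the hippocampal value helped to choose the gene. The KO hippocampus arrays of 161234_f_at were dim (5.76, 17.4 and 19.3, with a floor of 9.46). Its hippocampal difference was -1.10 with 16 added in place of the floor and -1.91 with no floor. Its ending _f_at also leaves its assignment to Septin4 alone uncertain. The other Septin4 probe set, 94079_at, had -0.84 in hippocampus and -0.20 in cerebellum.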

How the results depend on the processing

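The KO minus WT differences of the 4 probe sets were recomputed under 15 alternatives in each region. Several of these cannot change a difference of group means and returned the main value. They are another filter, no intensity trend, the mouse as a block and the region's own 6 arrays. Taking the floor away acts only where an array is under it. Under the other settings the differences moved by less than 1 SD between replicates, with 2 exceptions. With 16 added in place of the floor, Anln in cortex was -0.84 and Septin4 161234_f_at in hippocampus -1.10. The compression of dim values is part of how that setting is built. Gsn ranged from -2.04 to -1.69 in hippocampus, -2.22 to -1.58 in cortex and -0.68 to -0.50 in cerebellum. With 1 mouse left out, Septin4 94079_at ranged from -1.07 to -0.69 in hippocampus, -0.29 to -0.11 in cerebellum and -0.64 to -0.32 in cortex, Septin4 161234_f_at from -1.89 to -1.36, 0.67 to 1.16 and 0.22 to 0.36, and Anln from -0.37 to -0.16 in cerebellum and -1.42 to -1.04 in cortex. Signs held except for Anln in hippocampus (-0.18 to 0.14).

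Between WT regions, the F test of Gsn (adjusted p = 0.0407) was lost with no filter (0.114), no intensity trend (0.0694) and quantile normalization (0.0677), and ranged over 0.0153 to 0.175 with 1 mouse left out, being over 0.05 without 3389 (0.0653), 3396 (0.175), 3405 (0.0776) or 3406 (0.166). Without 3405 the F tests of Anln (0.00106 to 0.0645 with 1 mouse left out) and Septin4 161234_f_at (0.00222 to 0.0709) were lost too. The cause was not tested. With the mouse as a block, Gsn had 0.0377 and 3899 probe sets differed between WT regions, against 3687. The block changed 2 calls, both given above, and the KO minus WT counts in hippocampus (8 lower) and cortex (20 lower) little.

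Counts over all probe sets moved more. Lower in KO hippocampus were 7, 12 with median scaling, 1 on the region's own 6 arrays and 1 (without 3405) to 18 (without 3396) with 1 mouse left out. Higher were 3, with 5 under no filter, 0 on the own arrays and 2 to 7 with 1 mouse left out. Lower in cortex were 19, 2 on the own arrays and 4 to 27 with 1 mouse left out; higher were 5, with 9 under median scaling, 10 under quantile normalization, 12 under no filter, 1 on the own arrays and 2 to 8 with 1 mouse left out. Lower in cerebellum were 3, with 15 under median scaling, 7 under the 60th percentile filter, 1 with no intensity trend, 0 on the own arrays and 0 to 67 with 1 mouse left out. Higher there were 0, with 2 under the stricter filter or none and 0 to 54 with 1 mouse left out. Both highest values were those without WT mouse 3405. Of the genes on the 5 related lists 0 passed, except in cerebellum 1 lower with median scaling and, without 3405, 2 lower and 1 higher. Precision rests on 3 mice per group, and detection calls were not used here.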
